A study of Arabidopsis thaliana with 36 samples.

Results

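At 8 h on the synthetic auxin 1-naphthaleneacetic acid (NAA), Arabidopsis thaliana roots of CASP1::shy2-2/slr-1 were set directly against roots of slr-1, with every gene measured in 3 libraries of each genotype. These 6 libraries are 2 of the 12 groups and 6 of the 36 libraries of an RNA sequencing time course, and were chosen by their titles alone. Both genotypes are in the Col-0 ecotype and both carry slr-1, a stabilised form of the auxin repressor IAA14. The tested line carries in addition shy2-2, a stabilised form of the repressor IAA3 (also called SHY2), under the promoter of CASP1, which is active in the differentiated endodermis. Seedlings of both groups were placed on 10 µM NAA at the age of 6 days, and their roots were collected at 7 days. The root tip of about 3 mm and the shoot were cut off, so a library holds the RNA of all tissues of the remaining root. Labels do not say how many roots went into a library, whether libraries came from separate cultures, or how many transgenic lines were used. A p-value or standard error therefore measures a spread between libraries that may be technical. That spread was estimated within the 12 groups of all 36 libraries, not within these 6 alone.

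Auxin works in plants by sending Aux/IAA proteins to degradation, which frees the auxin response factors (ARFs) to act on their target genes. Stabilised Aux/IAA proteins such as those of slr-1 and shy2-2 stay in place when auxin arrives and keep these targets off. In the root, auxin starts lateral roots from the pericycle, and the endodermis above must give way to the emerging primordium. The endodermis is also the barrier layer of the root, sealed by the Casparian strip, a lignin band, and later by suberin lamellae. The comparison at 8 h addresses how auxin-treated roots with a stabilised repressor in the endodermis differ from roots that share the slr-1 mutation alone.

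Reads in genes numbered 32.5 to 49 M in the 6 libraries, with a read in 22033 to 22790 genes. Levels are given as CPM, which are read counts scaled to a common library total and corrected for composition, with the values of replicates 1, 2 and 3 in that order. No library was a copy of another, since within a genotype the chi-square over its degrees of freedom ran from 6.37 to 44.6. CASP1::shy2-2/slr-1 replicate 3 stood apart. On the first principal component, with 52.5% of the variance, this library lay at -7.1, replicates 1 and 2 of its genotype lay at -58.5 and -51.6, and the slr-1 libraries lay at 33.2, 52 and 31.9. Its log2 CPM correlated at 0.9759 and 0.9808 with its own genotype and at 0.9746, 0.9802 and 0.9734 with slr-1. Library codes of CASP1::shy2-2/slr-1 replicates 1 and 2 and of slr-1 replicate 3 end in the letter n, the codes of the other 3 libraries have no such letter, and its meaning is not given. Results are therefore also given without CASP1::shy2-2/slr-1 replicate 3 or with the letter as a term in the model. Values within the libraries without a letter set this replicate alone against slr-1 replicates 1 and 2. Values within those ending in n set slr-1 replicate 3 alone against CASP1::shy2-2/slr-1 replicates 1 and 2. Both rest on a single library on 1 side.

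**Figure D1:**
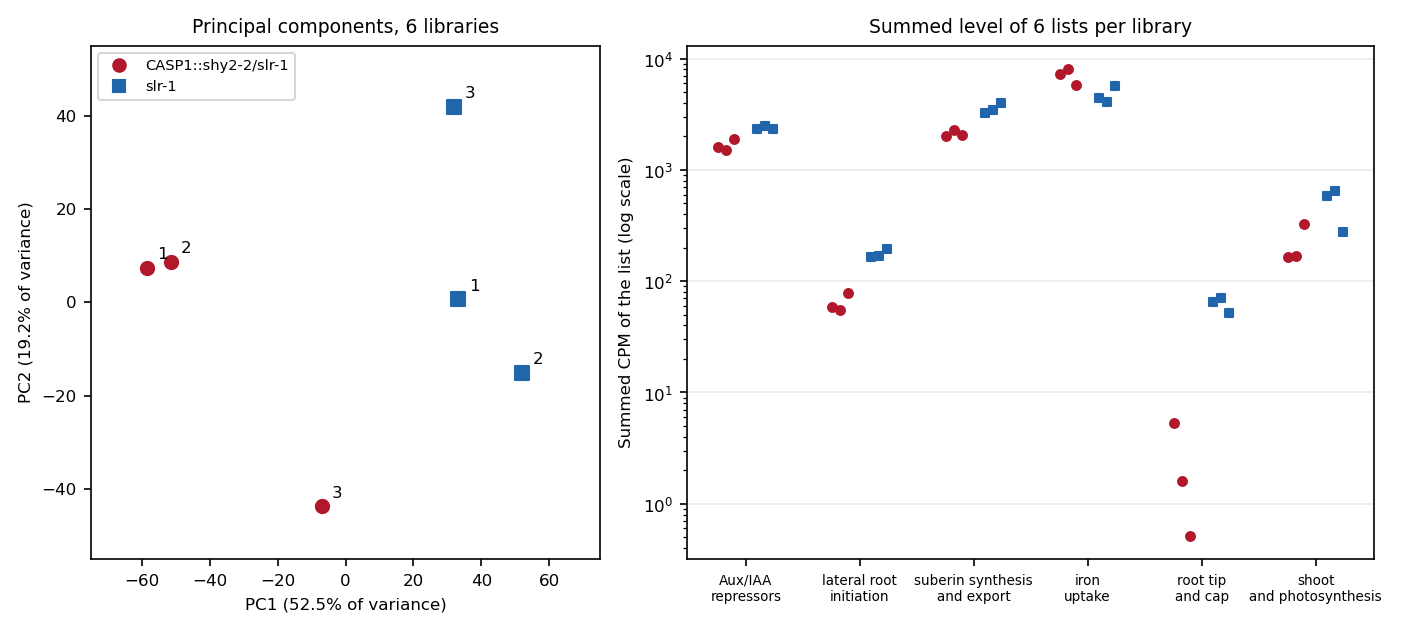
Left, the 6 libraries at 8 h NAA on the first 2 principal components of log2 CPM, numbered by replicate. Right, the summed CPM of 6 gene lists in each library (log scale, points left to right are replicates 1 to 3). CASP1::shy2-2/slr-1 replicate 3 lies at -7.1 on the first component, between its own genotype and slr-1, and the photosynthesis sum of 325 CPM in it exceeds the 279 CPM of slr-1 replicate 3.

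Markers of other tissues were measured because the sections hold every root cell type. In bulk samples, fewer cells of a type and less RNA per cell cannot be told apart. Of 18 photosynthesis genes measured, 13 were lower in CASP1::shy2-2/slr-1 and 0 higher, with a median log2 difference of -1.26, although the sections hold no shoot. Their summed level was at most 170 CPM in CASP1::shy2-2/slr-1 replicates 1 and 2 and 325 CPM in its replicate 3, against 583, 650 and 279 CPM in slr-1. The groups overlapped in this sum, and within each genotype the libraries whose code ends in n were the low ones. The count of lower members was 3 and 4 without CASP1::shy2-2/slr-1 replicates 1 and 2, 7 and 5 without slr-1 replicates 1 and 2, and 14 without CASP1::shy2-2/slr-1 replicate 3. With only the 6 libraries in the fit it was 0 of 16, so every call of this list was lost. What part these markers have in the other differences was not tested. Of the 13 root hair and epidermis markers none passed the test, at a median of 1.1, and their sums ran from 71.6 to 86 CPM in CASP1::shy2-2/slr-1 and from 58.7 to 65.7 CPM in slr-1. Without CASP1::shy2-2/slr-1 replicate 3, 3 of them were higher. Of the 9 xylem markers none passed, and the sums overlapped, at 520 to 593 CPM in CASP1::shy2-2/slr-1 and 539 to 598 CPM in slr-1. The xylem median was -0.02 and all 9 differences lay between -0.25 and 0.04. Among endodermal markers, CASP1 to CASP5 stood under 6 CPM in every library of both genotypes, so the labelled promoter's own gene was low at this time.

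Of 20939 genes tested at 8 h, 3069 (14.7%) differed between the genotypes at an adjusted p under 0.05 (edgeR quasi-likelihood test, Benjamini-Hochberg adjustment). In CASP1::shy2-2/slr-1, 1377 genes (6.58%) were higher and 1692 (8.08%) lower, and the median over all genes tested was -0.01 on the log2 scale. Larger differences were more often downward, with 553 genes lower and 314 higher by at least 1 log2 unit, and 188 lower and 119 higher by at least 2. In 32.8% of genes the 3 libraries of one genotype all lay on one side of the other 3 (16.3% higher and 16.5% lower), and 12.8% were called and did not overlap. The count of called genes was 3318 without CASP1::shy2-2/slr-1 replicate 3, and fell to 1680 and 1764 without its replicates 1 and 2 and to 2022 and 1801 without slr-1 replicates 1 and 2. It was 3174 with the code letter as a term, 3445 within the libraries ending in n, 1371 within those without a letter and 1757 with only the 6 libraries in the fit. Calls of the 135 genes named by rule were tried under the same alternatives of scaling, filter, tool, library set and model. Up to 16 alternatives applied to a gene, and calls that ended in 5 or more are given with that number. Calls of further genes in the text were not tried singly, among them LBD16, PUCHI, KCS1, GPAT7, PIN4, MYB72 and PIP2;2.

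IAA3 (AT1G04240), whose stabilised form the transgene encodes, held 37, 28.5 and 35.9 CPM in CASP1::shy2-2/slr-1, against 80.8, 87.1 and 117 CPM in slr-1. Every library of the transgenic line lay below every slr-1 library, at a log2 difference of -1.49 ± 0.13 (standard error, n = 3 per group; adjusted p = 1.48e-09). Without NAA the IAA3 difference was 0.16 ± 0.12 (adjusted p = 0.351), and the 2 differences themselves differed by -1.65 ± 0.18 (adjusted p = 1.64e-06). IAA14 (AT4G14550), the repressor stabilised in both lines, held 7.26, 7.46 and 9.11 CPM in CASP1::shy2-2/slr-1, against 23.1, 22.9 and 18.5 CPM in slr-1. It was lower by -1.44 ± 0.28 (adjusted p = 7.54e-04), again without overlap. CASP1 (AT2G36100), which builds the membrane domain of the Casparian strip, held 5.14, 4.36 and 1.06 CPM in CASP1::shy2-2/slr-1 and 1.66, 0.399 and 0.744 CPM in slr-1. The CASP1 groups overlapped, and at 1.95 ± 0.82 the gene was not called (adjusted p = 0.114). A transgene read counts toward the same gene as a native read and the stabilising mutations leave no mark in a count, so none of these 3 values checks the genotype.

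Aux/IAA genes, repressors of which many but not all are induced by auxin itself, were lower as a family. Of 27 measured, 15 were lower in CASP1::shy2-2/slr-1 and 0 higher, with a median of -0.52 and a range of -2.47 to 0.15. Their summed level was 1520 to 1900 CPM in CASP1::shy2-2/slr-1, against 2310 to 2490 CPM in slr-1. Without NAA 7 of the 27 were already lower. The difference at 8 h lay below that without NAA for 4 of the 27 and above it for 1, each at an adjusted p under 0.05. IAA29, a repressor strongly induced by auxin, held 9.04, 5.61 and 6.07 CPM in CASP1::shy2-2/slr-1, against 31.3, 34.1 and 49.8 CPM in slr-1. It had the largest difference of the family, at -2.47 ± 0.21 (adjusted p = 2.66e-09). IAA4 followed the same order with 43, 36.6 and 60.9 CPM in CASP1::shy2-2/slr-1, against 88, 102 and 76.4 CPM in slr-1 (-0.92 ± 0.14, adjusted p = 3.16e-05). The other lower members were IAA1, IAA2, IAA8, IAA9, IAA10, IAA11, IAA12, IAA13, IAA19, IAA20 and IAA26, at -0.36 to -1.5. For 12 members the test was not passed, among them IAA28, a repressor of lateral root founder cells, with 120, 95.7 and 93.6 CPM in CASP1::shy2-2/slr-1 and 132, 141 and 115 CPM in slr-1. IAA27 held 84.9, 86.3 and 88.5 CPM in CASP1::shy2-2/slr-1 and 70.9, 73.7 and 88.7 CPM in slr-1, which overlap. The count of 15 lower members was 16 without CASP1::shy2-2/slr-1 replicate 3 and with the code letter as a term, 12 and 11 without its replicates 1 and 2, 9 with only the 6 libraries in the fit and 7 within the libraries without a letter, with 0 higher in each.

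Genes that inactivate auxin moved in both directions. The GH3 enzymes conjugate auxin to amino acids, and of 9 conjugation and oxidation genes 2 were higher and 2 lower. GH3.2 held 713, 819 and 937 CPM in CASP1::shy2-2/slr-1, against 409, 403 and 436 CPM in slr-1, and was higher by 0.98 ± 0.16 (adjusted p = 1.25e-04). GH3.3 was also higher, at 0.71 ± 0.22 (adjusted p = 0.0272), a call that ended in 5 of 16 alternatives, among them the omission of CASP1::shy2-2/slr-1 replicate 2 or 3 or slr-1 replicate 1 or 2 (0.59 and adjusted p = 0.0977 without CASP1::shy2-2/slr-1 replicate 3). GH3.5 held 54.9, 54.6 and 73.1 CPM in CASP1::shy2-2/slr-1, against 132, 135 and 122 CPM in slr-1, and was lower by -1.09 ± 0.16 (adjusted p = 2.43e-05). GH3.1, a weakly expressed member, was lower by -1.72 ± 0.37 (adjusted p = 0.00212).

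Auxin synthesis genes had 3 of 10 measured members higher and 0 lower, at a median of 0.54. YUC2, a flavin monooxygenase of the last step of synthesis, held 9.39, 9.87 and 8.92 CPM in CASP1::shy2-2/slr-1, against 2.72, 3.37 and 4.21 CPM in slr-1. Its difference was 1.45 ± 0.18 without overlap (adjusted p = 2.33e-06). YUC8, of the same family, was higher by 1.01 ± 0.24 and TAR2, an aminotransferase of the first step, by 0.73 ± 0.19 (adjusted p = 0.0055 and 0.0101), with overlapping libraries and a call lost in 5 of 16 alternatives in both. A single member of the list was called without slr-1 replicate 2. Of 21 receptor and response factor genes, 1 was higher and 3 lower. ARF19, an activator of lateral root formation, held 35, 32.4 and 34.7 CPM in CASP1::shy2-2/slr-1, against 46.5, 41.3 and 63.1 CPM in slr-1 (-0.56 ± 0.12, adjusted p = 0.00222). ARF16 was lower by -0.68 ± 0.09 and ARF8 by -0.43 ± 0.12, while ARF11 was higher by 0.58 ± 0.16 (adjusted p = 1.06e-05, 0.0134 and 0.0117). The calls of ARF8 and ARF11 ended in 5 of 16 alternatives each.

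Auxin transport genes were lower in 9 of 21 measured members and higher in 1, at a median of -0.64. AUX1, the main auxin influx carrier of the root, held 102, 107 and 128 CPM in CASP1::shy2-2/slr-1, against 156, 157 and 179 CPM in slr-1. The AUX1 groups did not overlap, at -0.55 ± 0.10 (adjusted p = 2.65e-04). LAX3, the influx carrier of the cells that overlie a primordium, held 79.1, 85.9 and 91.6 CPM in CASP1::shy2-2/slr-1, against 112, 118 and 187 CPM in slr-1 (-0.70 ± 0.21, adjusted p = 0.0270), a call that ended in 5 of 16 alternatives. Of the efflux carriers, PIN3, PIN4, PIN5 and PIN7 were lower by -0.78 to -1.31. PIN4 overlapped between the genotypes, with 9.8, 7.84 and 15.1 CPM in CASP1::shy2-2/slr-1 and 29.4, 29.1 and 14.1 CPM in slr-1. PID, a kinase that sets the polarity of PIN proteins, was lower by -1.42 ± 0.24 (adjusted p = 1.87e-04), and its weakly expressed relative WAG2 by -2.34 ± 0.43 (adjusted p = 3.82e-04). PILS3, an auxin carrier of the endoplasmic reticulum, was the member that was higher, with 227, 221 and 224 CPM in CASP1::shy2-2/slr-1, against 156, 154 and 125 CPM in slr-1 (0.63 ± 0.11, adjusted p = 1.69e-04). The list had 11 lower members without CASP1::shy2-2/slr-1 replicate 3 and 10 with the code letter as a term, 6 without CASP1::shy2-2/slr-1 replicate 1 or 2, 5 with only the 6 libraries in the fit and 2 within the libraries without a letter.

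Genes of lateral root initiation were lower in 8 of 17 measured members and higher in 0, at a median of -0.94. Their summed level was 55.4 to 77.9 CPM in CASP1::shy2-2/slr-1, against 166 to 195 CPM in slr-1. LBD18, a LOB domain factor that auxin induces in lateral root formation, held 5.01, 4.98 and 6.14 CPM in CASP1::shy2-2/slr-1, against 31.8, 32.1 and 48.7 CPM in slr-1. Its difference of -2.80 ± 0.14 had the smallest p of the list (adjusted p = 4.55e-14). LBD29, of the same family, held 5.8, 6.08 and 9.56 CPM in CASP1::shy2-2/slr-1, against 36.8, 37.8 and 53.7 CPM in slr-1 (-2.58 ± 0.24, adjusted p = 1.26e-08). LBD33, LBD17 and LBD16 were lower by -3.31 ± 0.61, -2.10 ± 0.40 and -0.78 ± 0.16, the first 2 at under 4 CPM in every library. MAKR4, a membrane-associated regulator of founder cells, held 10.8, 10.5 and 32.5 CPM in CASP1::shy2-2/slr-1, against 45.1, 55.1 and 49.8 CPM in slr-1. MAKR4 was lower by -1.48 ± 0.28 with all 3 libraries and by -2.22 without CASP1::shy2-2/slr-1 replicate 3, the highest of the 3 (adjusted p = 5.37e-04 and 3.73e-08). GATA23, a founder cell factor, and PUCHI, a factor of early primordia, were the other lower members, at -2.31 ± 0.47 and -1.39 ± 0.35. LRP1, a primordium gene, stood at -0.60 ± 0.21 without passing the test (adjusted p = 0.061). The count of lower members was 8 under each omission of 1 library and 7 with only the 6 libraries in the fit. The list's median was -1.12 within the libraries without a letter and -0.8 within those ending in n, where not every call was downward.

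Genes for the separation of overlying cells were lower in 3 of 8 measured members and higher in 0. HSL2, a receptor kinase of cell separation, held 14.1, 18 and 20.2 CPM in CASP1::shy2-2/slr-1, against 25.5, 26.3 and 22.7 CPM in slr-1 (-0.51 ± 0.16, adjusted p = 0.0344), a call lost in 7 of 16 alternatives. Its peptide ligand IDA was lower by -1.92 ± 0.63 (adjusted p = 0.044) at under 0.2 CPM in every library, a call lost in 8 of 13 alternatives, among them the code letter as a term (adjusted p = 0.0874). The remaining one was LAX3. The pectin-cutting enzyme genes of the list did not pass: QRT2 stood at -0.38 ± 0.21 and PGLR, with 1.47, 2.23 and 9.14 CPM in CASP1::shy2-2/slr-1 and 9.43, 9.21 and 1.58 CPM in slr-1, followed the code letter rather than the genotype. The list had 0 lower members without CASP1::shy2-2/slr-1 replicate 1 or 2, 1 without slr-1 replicate 1 or 2 and 5 without CASP1::shy2-2/slr-1 replicate 3. It had 1 with only the 6 libraries in the fit and 0 within the libraries without a letter.

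**Figure D2:**
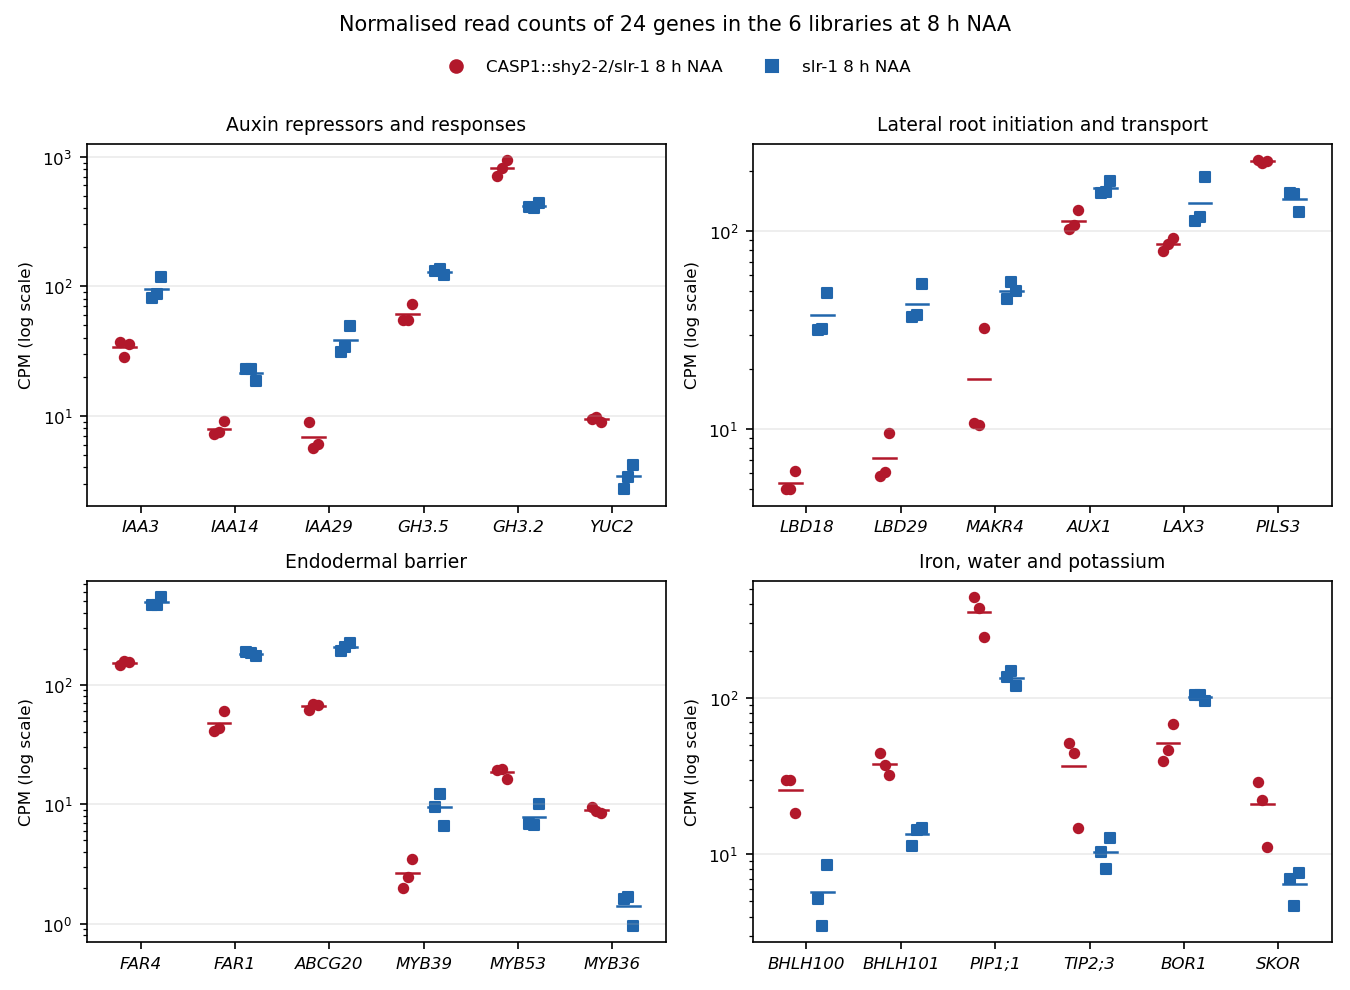
CPM (log scale) of 24 genes in the 3 CASP1::shy2-2/slr-1 libraries (circles) and the 3 slr-1 libraries (squares) at 8 h NAA, with replicates 1 to 3 from left to right and the mean as a line. IAA3, LBD18 and FAR4 are lower in all 3 CASP1::shy2-2/slr-1 libraries, as at 5.01, 4.98 and 6.14 CPM for LBD18, and YUC2, MYB36 and BHLH101 are higher in all 3.

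The suberin synthesis and export genes were lower as a group. Of 16 measured, 10 were lower in CASP1::shy2-2/slr-1 and 0 higher, with a median of -1.04 and a range of -1.93 to 0.30. Summed levels were 2000 to 2270 CPM in CASP1::shy2-2/slr-1, against 3240 to 3990 CPM in slr-1. FAR4, a fatty acyl-CoA reductase that makes primary alcohols of suberin, held 146, 158 and 156 CPM in CASP1::shy2-2/slr-1, against 468, 462 and 542 CPM in slr-1. The FAR4 difference of -1.68 ± 0.11 (adjusted p = 7.11e-12) was joined by that of FAR1, of the same family, at -1.92 ± 0.18 (adjusted p = 1.44e-08). The half-transporter gene ABCG20, which serves suberin export, held 61.7, 69.2 and 67.9 CPM in CASP1::shy2-2/slr-1, against 191, 208 and 225 CPM in slr-1 (-1.65 ± 0.22, adjusted p = 5.04e-06). Of the enzymes that lengthen fatty acids, KCS2 was lower by -1.45 ± 0.21 and KCS1 by -1.02 ± 0.15. Also lower were the fatty acid hydroxylases CYP86A1 and CYP86B1 (-1.06 ± 0.25 and -1.37 ± 0.23), the acyltransferase GPAT7 (-1.89 ± 0.31) and the transporters ABCG1 and ABCG2 (-1.93 ± 0.45 and -0.89 ± 0.14). The list was not lower throughout. GPAT5, FAR5, KCS20, ABCG6, FACT and ASFT did not pass, and ASFT, which adds ferulate to suberin, held 300, 327 and 287 CPM in CASP1::shy2-2/slr-1 and 237, 274 and 245 CPM in slr-1. The count of lower members was 9 or 10 with any 1 library left out, 11 with the code letter as a term and 8 with only the 6 libraries in the fit. The list's median was -0.86 within the libraries without a letter and -1.36 within those ending in n, where not every call was downward. Of 3 GDSL esterases linked to suberin assembly, GELP38 was lower by -0.64 ± 0.20 (adjusted p = 0.0338), which did not pass in 6 of 16 alternatives, among them every omission of 1 library but slr-1 replicate 1 (adjusted p = 0.0705 without CASP1::shy2-2/slr-1 replicate 3).

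The MYB factors that act on suberin genes split. MYB53 held 19.4, 19.7 and 16.4 CPM in CASP1::shy2-2/slr-1, against 6.79, 6.75 and 10 CPM in slr-1, and was higher by 1.24 ± 0.17 (adjusted p = 9.99e-06). MYB92 was higher by 0.66 ± 0.14 (adjusted p = 0.00226). In contrast, MYB39 held 2, 2.45 and 3.49 CPM in CASP1::shy2-2/slr-1, against 9.54, 12.2 and 6.63 CPM in slr-1, and was lower by -1.85 ± 0.38 (adjusted p = 0.00141). MYB107 was lower by -1.63 ± 0.30 and MYB93 by -0.63 ± 0.19 (adjusted p = 3.56e-04 and 0.0282), the second lost in 6 of 16 alternatives, with an adjusted p of 0.11 without CASP1::shy2-2/slr-1 replicate 3. MYB41 and MYB9, the remaining 2 of 7, stood at 0.56 ± 0.33 and -0.35 ± 0.24 and did not pass.

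Casparian strip genes had 3 of 16 measured members higher and 0 lower, at a median of 0.52. MYB36, the factor that switches on the Casparian strip genes, held 9.6, 8.78 and 8.55 CPM in CASP1::shy2-2/slr-1, against 1.63, 1.68 and 0.961 CPM in slr-1. Its libraries did not overlap and the difference was 2.64 ± 0.35 (adjusted p = 6.52e-06). The targets of MYB36 on the list did not pass: CASP2 stood at 1.68 ± 0.75, PER64, a lignin peroxidase of the strip, at 0.56 ± 0.59 and ESB1, a dirigent protein, at 0.30 ± 0.30. RBOHF, the oxidase that feeds the peroxidase, was higher by 0.30 ± 0.08 (adjusted p = 0.0094). SCR, a factor that specifies the endodermis, was higher by 0.34 ± 0.12 (adjusted p = 0.0484), a call that ended in 12 of 16 alternatives, among them total counts, no filter, the replicate block, the code letter as a term (adjusted p = 0.0718) and every omission of 1 library but CASP1::shy2-2/slr-1 replicate 3. Without slr-1 replicate 2 or CASP1::shy2-2/slr-1 replicate 2, 1 member of the list was called. Phenylpropanoid and lignin genes had 2 of 20 members lower and 0 higher, near the background, with PAL4 of the entry step at -0.66 ± 0.16 and CCR1 of the lignin branch at -0.33 ± 0.10, the second lost in 6 of 16 alternatives.

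Of 20 cell cycle genes, 6 were lower and 0 higher, at a median of -0.26. The largest of the 4 with the smallest p was CDKB1;1, a kinase of the entry into mitosis, with 11, 11.1 and 12.7 CPM in CASP1::shy2-2/slr-1, against 15.1, 18.6 and 16.6 CPM in slr-1 (-0.53 ± 0.13, adjusted p = 0.00542). CDKA;1, the constant kinase of the cycle, held 51.6, 50.5 and 49.6 CPM in CASP1::shy2-2/slr-1, against 57.1, 57.6 and 55.8 CPM in slr-1, a small difference without overlap (-0.17 ± 0.04, adjusted p = 0.00854). The count was 2 without CASP1::shy2-2/slr-1 replicate 1 or 2 or slr-1 replicate 3, and 3 without slr-1 replicate 2. It was 12 within the libraries ending in n, 0 within those without a letter and 2 with only the 6 libraries in the fit. Expansins and xyloglucan enzymes, which loosen cell walls, had 3 of 18 lower and 0 higher, although the list's median was 0.07. EXPA15 held 79.1, 95.9 and 182 CPM in CASP1::shy2-2/slr-1, against 255, 291 and 214 CPM in slr-1 (-1.09 ± 0.33, adjusted p = 0.024), and EXPA10 and XTH24 were lower by -1.70 ± 0.48 and -0.93 ± 0.25 with overlapping libraries. The calls of EXPA15 and EXPA10 ended in 5 of 16 alternatives each. That of XTH24 ended in 4 of 16, and in 1 more its sign turned. The count was 6 without CASP1::shy2-2/slr-1 replicate 3, 1 without slr-1 replicate 1 or 2 and 0 without CASP1::shy2-2/slr-1 replicate 1 or 2 or with only the 6 libraries in the fit.

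Lists of other hormones held few calls, at most 4 of a list in 1 direction. Over all genes tested 6.58% were higher and 8.08% lower, and the cytokinin and abscisic acid counts lay near these shares. Of 21 ethylene genes 3 were higher and 3 lower. ACS7, a synthase of the ethylene precursor, held 14.4, 10.5 and 7.54 CPM in CASP1::shy2-2/slr-1, against 3.84, 3.41 and 3.01 CPM in slr-1 (1.66 ± 0.28, adjusted p = 1.30e-04), and its relative ACS8 was lower by -1.51 ± 0.46. The receptor genes ERS2 and ERS1 were lower by -0.89 ± 0.12 and -0.25 ± 0.08, and the receptor gene ETR1 was higher by 0.22 ± 0.06. The calls of ACS8, ETR1 and ERS1 ended in 5, 6 and 8 of 16 alternatives. Of 22 cytokinin genes 2 were higher and 1 lower. ARR16, a response regulator that cytokinin induces, held 2.62, 2.7 and 2.48 CPM in CASP1::shy2-2/slr-1, against 0.589, 0.509 and 1.18 CPM in slr-1 (1.80 ± 0.27, adjusted p = 4.00e-05). The cytokinin oxidase gene CKX5 was higher by 0.52 ± 0.13 and CKX7 lower by -1.54 ± 0.43, calls lost in 5 of 16 and 5 of 15 alternatives. Of 12 jasmonate genes 4 were higher and 0 lower, with JAZ2, a repressor, and MYC2, the main factor of the pathway, at 0.39 ± 0.08 and 0.32 ± 0.09. JAZ10, a repressor, and LOX3, a synthesis enzyme, were high in CASP1::shy2-2/slr-1 replicate 1 alone. JAZ10 held 9.35, 0.972 and 1.5 CPM in that genotype and 1.26, 1.42 and 1.08 CPM in slr-1, and stood at -0.01 without this library, and LOX3 stood at 3.88 with it and 1.08 without it. Of 15 alternatives for JAZ10, 8 ended the call and 1 turned its sign, and 5 of 13 ended that of LOX3. These counts were small. Without CASP1::shy2-2/slr-1 replicate 1 or slr-1 replicate 1, 1 jasmonate member was higher and 0 lower, and without slr-1 replicate 2, 2 were higher and 0 lower. Without slr-1 replicate 3, 2 were higher and 1 lower. Without CASP1::shy2-2/slr-1 replicate 3, or with the code letter as a term, 4 were higher and 2 lower. Of the ethylene genes, 1 was called in each direction without slr-1 replicate 1 or 2. Of 12 abscisic acid genes 1 was lower, RD29B, a stress protein at under 2.1 CPM (-2.33 ± 0.70, adjusted p = 0.0236). This call ended in 6 of 15 alternatives, with a difference of -0.56 and an adjusted p of 0.636 at the weakest.

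Iron uptake genes were higher in 5 of 15 measured members and lower in 0, at a median of 0.68. The summed level was 5830 to 8090 CPM in CASP1::shy2-2/slr-1 and 4090 to 5690 CPM in slr-1. BHLH101, a factor that iron deficiency induces, held 44.7, 37.1 and 32.4 CPM in CASP1::shy2-2/slr-1, against 11.3, 14.4 and 14.8 CPM in slr-1 (1.5 ± 0.43, adjusted p = 0.02). BHLH100, of the same group, held 29.8, 29.8 and 18.3 CPM in CASP1::shy2-2/slr-1, against 5.16, 3.48 and 8.58 CPM in slr-1 (2.19 ± 0.69, adjusted p = 0.0323). AHA2, the proton pump that acidifies the soil, was higher by 0.54 ± 0.16, BTS, a ligase that restrains the iron response, by 0.57 ± 0.13, and MYB72, a root factor of that response, by 2.45 ± 0.81 with overlapping libraries. The calls of BHLH100 and AHA2 ended in 5 and 7 of 16 alternatives. The uptake transporter IRT1 and the reductase FRO2 did not pass. IRT1 held 707, 532 and 129 CPM in CASP1::shy2-2/slr-1 and 266, 167 and 211 CPM in slr-1, with CASP1::shy2-2/slr-1 replicate 3 below every slr-1 library. The list had 1 higher member without slr-1 replicate 1 or 2 or CASP1::shy2-2/slr-1 replicate 1, 2 without CASP1::shy2-2/slr-1 replicate 2 and 6 without its replicate 3. It had 2 within the libraries without a letter and 9 within those ending in n. Of 6 nitrate genes none passed, at a median of -0.05.

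Aquaporin genes, which encode water channels, were higher in 5 of 14 members and lower in 2. PIP1;1, of the plasma membrane, held 442, 378 and 247 CPM in CASP1::shy2-2/slr-1, against 136, 149 and 120 CPM in slr-1 (1.40 ± 0.24, adjusted p = 1.63e-04). TIP2;3, of the vacuole, held 51.2, 44.7 and 14.7 CPM in CASP1::shy2-2/slr-1, against 10.4, 8.04 and 12.8 CPM in slr-1 (1.83 ± 0.41, adjusted p = 0.00324). TIP2;2 was higher by 1.13 ± 0.28 and TIP1;1 by 0.72 ± 0.22. The call of TIP1;1 ended in 7 of 16 alternatives, among them the code letter as a term (0.48, adjusted p = 0.0518). In 1 more its sign turned, at -0.07 within the libraries without a letter. PIP2;2, of the plasma membrane, was higher by 0.77 ± 0.25, a value left uncertain by reads it may share with its close copy PIP2;3. In the opposite direction, PIP1;4 was lower by -0.59 ± 0.11 and TIP1;2 by -0.50 ± 0.13. The list had 3 higher members without slr-1 replicate 1, 2 or 3 or CASP1::shy2-2/slr-1 replicate 2, and 2 without CASP1::shy2-2/slr-1 replicate 1. It had 1 within the libraries without a letter, 7 within those ending in n and 2 with only the 6 libraries in the fit.

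Lists of stress and timing held few calls. Of 9 indolic defence genes 1 was higher, the factor WRKY33 (0.58 ± 0.19), and 1 lower, the first-step enzyme CYP79B3 (-0.55 ± 0.18), and neither passed without CASP1::shy2-2/slr-1 replicate 3. The call of CYP79B3 ended in 6 of 16 alternatives. Of 11 detoxification genes CYP81D8 was the single call, with 13.3, 14.2 and 44 CPM in CASP1::shy2-2/slr-1 and 12.5, 11.4 and 6.35 CPM in slr-1. CYP81D8 stood at 1.24 ± 0.34, and at 0.45 without that library (adjusted p = 0.0135 and 0.299). HSP22, a chaperone of the endoplasmic reticulum, was the single call of 7 heat shock genes, at -2.83 ± 0.59 (adjusted p = 0.00143). Of 15 clock genes PRR3 alone passed, at 0.50 ± 0.15 (adjusted p = 0.0225), and its call ended in 7 of 16 alternatives, among them the omission of slr-1 replicate 1 or 2 or CASP1::shy2-2/slr-1 replicate 1 or 2.

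Of 6 pericycle and stele markers 2 were higher and 1 lower, at a median of 0.32. Their summed level was 2360 to 2500 CPM in CASP1::shy2-2/slr-1 and 1910 to 2110 CPM in slr-1, without overlap. The difference at 8 h lay above that without NAA for 4 of the 6 and below it for 0. Over all genes tested these shares were 5.64% and 5.98%. The boron exporter BOR1 held 39.7, 46.4 and 68.1 CPM in CASP1::shy2-2/slr-1, against 105, 105 and 96.2 CPM in slr-1 (-0.99 ± 0.17, adjusted p = 1.80e-04). SKOR, a potassium channel that loads the xylem, held 29.2, 22.4 and 11.2 CPM in CASP1::shy2-2/slr-1, against 6.99, 4.65 and 7.65 CPM in slr-1 (1.71 ± 0.37, adjusted p = 0.00217). HKT1, a sodium transporter of the xylem parenchyma, was higher by 0.81 ± 0.27, and stood at 0.29 without CASP1::shy2-2/slr-1 replicate 3 (adjusted p = 0.0398 and 0.454), with the call lost in 5 of 16 alternatives. The other pericycle and stele markers, PHO1, NPF7.3 and SULTR2;1, did not pass. Of 11 phloem markers 2 were higher and 0 lower, and their sums did not overlap, at 361 to 411 CPM in CASP1::shy2-2/slr-1 and 316 to 347 CPM in slr-1. SWEET11, a sucrose exporter, held 1.24, 0.784 and 3.56 CPM in CASP1::shy2-2/slr-1, against 0.0561, 0.0664 and 0.062 CPM in slr-1 (4.85 ± 0.97, adjusted p = 9.85e-04), and PP2-A1, a phloem lectin, was higher by 0.67 ± 0.18. SUC2 and APL, which define companion cells and phloem identity, stood at 0.57 ± 0.23 and 0.02 ± 0.09 without passing. Of 2 cortex markers measured, C/VIF2, an invertase inhibitor, was lower by -1.28 ± 0.23 (adjusted p = 3.67e-04).

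**Figure D3:**
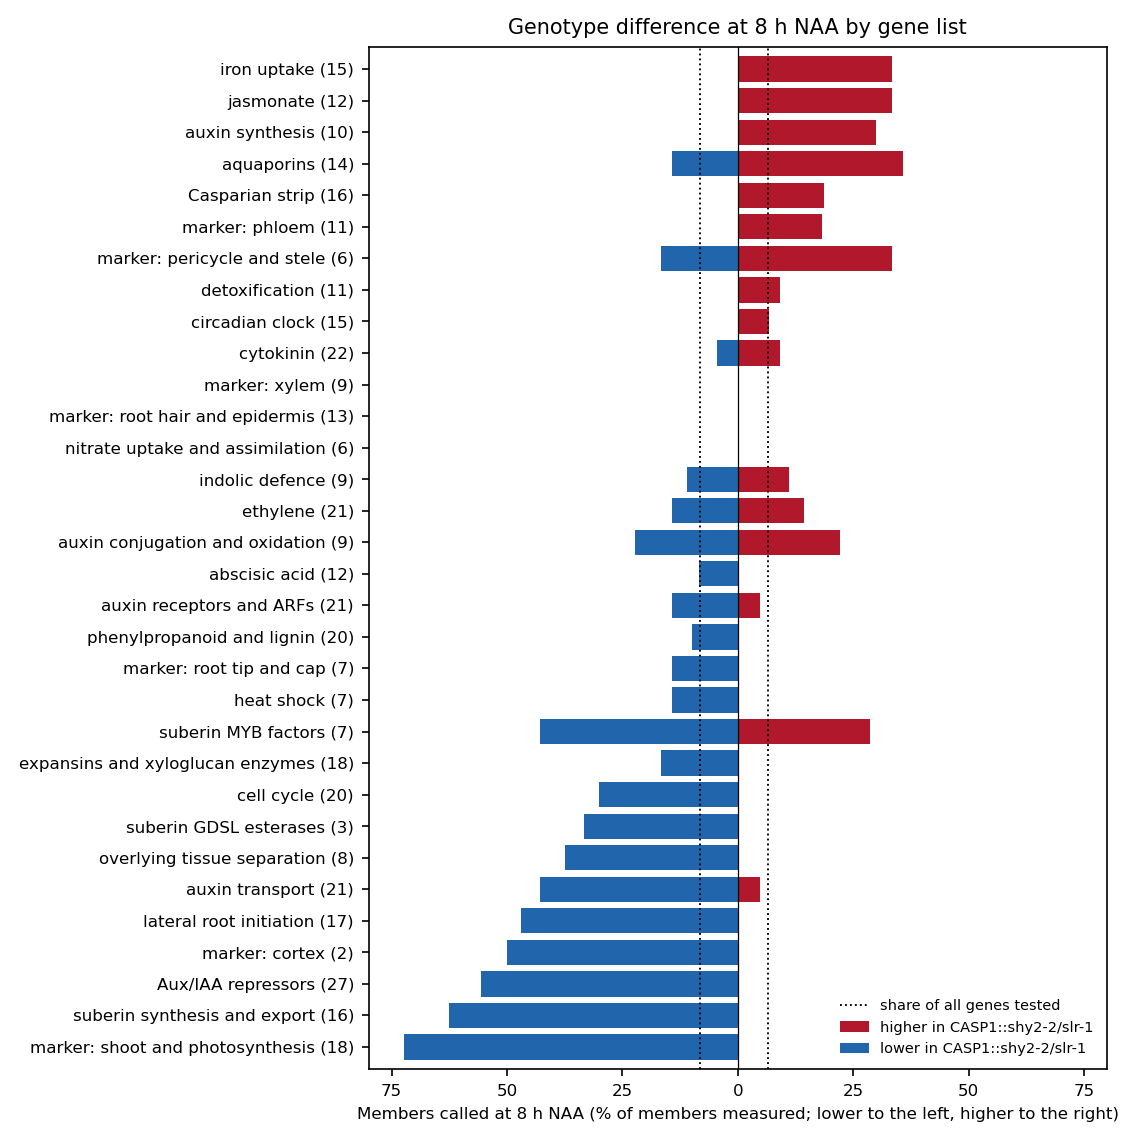
Share of the measured members of each gene list (number in parentheses) called higher (right) or lower (left) in CASP1::shy2-2/slr-1 against slr-1 at 8 h NAA. Dotted lines are the shares over all 20939 genes tested, 6.58% higher and 8.08% lower. The bars reach farthest to the left for photosynthesis (13 of 18), suberin (10 of 16) and the Aux/IAA repressors (15 of 27).

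Among called genes that averaged 1 or more in log2 CPM and did not overlap, the largest falls were of genes that slr-1 expressed and CASP1::shy2-2/slr-1 almost lacked. UMAMIT25, a transporter of the amino acid exporter family, held 0.0206, 0.188 and 0.172 CPM in CASP1::shy2-2/slr-1, against 56.5, 49.5 and 45.6 CPM in slr-1. Its difference of -8.72 ± 0.32 (adjusted p = 2.58e-17) was also present without NAA, at -6.68 ± 0.30. HIPP22, a metal-binding protein gene, was lower by -6.5 ± 0.31, and MRD1, first known from a methionine-accumulating mutant, by -6.29 ± 0.44. RGF8, a peptide of the root meristem growth factor family, held 0.475, 0.188 and 0.0983 CPM in CASP1::shy2-2/slr-1, against 5.64, 4.87 and 6.48 CPM in slr-1 (-4.39 ± 0.40). The cystatin gene AT5G47550, the transporter gene AT2G37900 and the uncharacterised AT5G15360 were lower by -5.74 ± 0.24, -5.79 ± 0.50 and -5.87 ± 0.33. For 4 genes the CASP1::shy2-2/slr-1 libraries held 1 or 2 reads in all, so the ratio is given with its counting interval at 95% confidence. The glycosyltransferase gene AT3G07620 was 1780-fold lower (319 to 70200), with 1 read, and the ribosomal protein S19 gene AT5G09500 721-fold lower (199 to 5960), with 2 reads. EXPB2, a beta-expansin, was 573-fold lower (158 to 4740) and DOR, an F-box protein that represses drought tolerance, 241-fold lower (66.3 to 2000), each with 2 reads. These intervals cover counting error alone.

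CEL5, a cellulase of the root cap, was the single one of the 12 largest falls that was not called without NAA. It held 2.29, 0.502 and 0.197 CPM in CASP1::shy2-2/slr-1, against 61.2, 69.3 and 51.4 CPM in slr-1 (-5.83 ± 0.61, adjusted p = 7.43e-08). Without NAA the CEL5 difference was -1.35 ± 0.62 (adjusted p = 0.109), and the change between the 2 differences was -4.48 ± 0.87 (adjusted p = 0.002). CEL5 was on the root tip and cap list, whose other 6 markers did not pass and summed to 0.32 to 3.04 CPM in CASP1::shy2-2/slr-1 and 0.279 to 3.36 CPM in slr-1. SMB, the defining factor of the root cap, stood at 0.764, 0.188 and 0 CPM in CASP1::shy2-2/slr-1 and at 0.954, 0.0443 and 0.124 CPM in slr-1. The sums of these other cap markers overlapped between the genotypes.

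Under the same minimum level, the largest rises were led by a germin-like gene, AT5G39120, with 6.73, 7.74 and 3.27 CPM in CASP1::shy2-2/slr-1, against 0.112, 0.0443 and 0.031 CPM in slr-1 (6.5 ± 0.69, adjusted p = 9.57e-08). GER2, another germin-like gene, was higher by 4.64 ± 0.42. RCI3, a peroxidase induced by cold and low potassium, held 133, 111 and 48.2 CPM in CASP1::shy2-2/slr-1, against 8.28, 6.16 and 3.32 CPM in slr-1 (4.03 ± 0.39, adjusted p = 1.44e-08), and the peroxidase gene AT5G19890 was higher by 4.99 ± 0.64. GLIP2, a lipase of defence, held 29.2, 22.8 and 15 CPM in CASP1::shy2-2/slr-1, against 1.32, 1.59 and 1.08 CPM in slr-1 (4.05 ± 0.36). AP3, known as a petal and stamen identity factor, held 11.9, 12.4 and 7.27 CPM in CASP1::shy2-2/slr-1, against 0.842, 0.797 and 1.3 CPM in slr-1 (3.44 ± 0.30, adjusted p = 3.14e-09). CYP71A20, a cytochrome P450, and TPS13, a terpene synthase, were higher by 2.99 ± 0.47 and 2.95 ± 0.70. PROPEP6, the precursor of a defence peptide, was higher by 2.86 ± 0.26 and MSRB9, a methionine sulfoxide reductase, by 2.96 ± 0.66. The last 2 were AT4G08360, of the KOW domain, and the uncharacterised AT3G05770, at 3.1 ± 0.87 and 2.96 ± 0.53. All of these largest rises but AT4G08360 and TPS13 were also called higher without NAA, with AT5G19890 at 5.61, AP3 at 3.49 and MSRB9 at 2.63. GLIP2, RCI3 and PROPEP6 were higher by less without NAA, at 1.3, 1.14 and 1.42. Within the libraries without the letter n, MSRB9 stood at 0.62 and was not called (adjusted p = 0.623).

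Of the genes with the smallest p, UMAMIT25, HIPP22 and AT5G47550 were also among the largest falls. AT1G78530, a receptor-like kinase gene, averaged 2.92 ± 0.242 CPM in CASP1::shy2-2/slr-1 (SD, n = 3), against 15.8, 17.2 and 19.8 CPM in the slr-1 libraries, without overlap (-2.59 ± 0.09, adjusted p = 1.22e-17). ENODL16, an early nodulin-like protein gene, was lower by -3.38 ± 0.14 (adjusted p = 3.61e-16). Among genes that were higher, cwINV6, a fructan exohydrolase, held 30.3, 32.4 and 28.2 CPM in CASP1::shy2-2/slr-1, against 6.14, 5.96 and 7.1 CPM in slr-1 (2.25 ± 0.16, adjusted p = 4.00e-11). LACS1, an acyl-CoA synthetase of cuticular wax, was higher by 2.77 ± 0.22, CYP705A1, a cytochrome P450 that cleaves the triterpene arabidiol, by 2.48 ± 0.21, the GDSL lipase gene AT1G28590 by 2.09 ± 0.14 and the terpenoid synthase gene AT3G32040 by 2.04 ± 0.16.

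The genotypes also differed without NAA, and the 6 untreated libraries share none with the 6 at 8 h. There 5223 genes (24.9%) were called, 2572 higher (12.3%) and 2651 lower (12.7%). Of the genes higher at 8 h, 463 were also higher without NAA, which is 33.6% of the 8 h list and 18% of the untreated list. Of the genes lower at 8 h, 519 were also lower without NAA (30.7% and 19.6%). In each direction 76 genes called at 8 h were called in the opposite direction without NAA. Not called without NAA were 838 of the higher and 1097 of the lower genes, but a missing call does not show a changed difference. Of these, 279 and 378 also had a larger difference at 8 h by the test of the change itself. That change, the difference at 8 h minus that without NAA, passed for 2433 genes (11.6%), with 1180 of them shifted upward (5.64%) and 1253 downward (5.98%). The split depended on scaling, since with total counts alone 878 shifted upward and 1653 downward, and the untreated calls became 3079 higher and 2106 lower. The count of 2433 became 1097 without untreated slr-1 replicate 1, 1174 without CASP1::shy2-2/slr-1 replicate 1 at 8 h, 1340 and 1605 without untreated CASP1::shy2-2/slr-1 replicates 3 and 1, and 1600 without slr-1 replicate 1 at 8 h. It was 1683 within the libraries without the letter n, and the untreated count of 5223 was 7754 there and 2537 without slr-1 replicate 1.

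Suberin genes shifted downward in 10 of 16 members and upward in 0, and 5 had been higher without NAA. FAR4 averaged 153 ± 6.33 CPM in CASP1::shy2-2/slr-1 at 8 h, against 491 ± 44.5 CPM in slr-1 (SD, n = 3 each), and 135 ± 13.8 CPM in untreated CASP1::shy2-2/slr-1, against 159 ± 26.1 CPM in untreated slr-1. Its shift was -1.45 ± 0.15 (adjusted p = 1.61e-06). GPAT5, an acyltransferase of suberin, was higher without NAA by 0.80 and stood at -0.42 ± 0.18 at 8 h. LBD18 stood at -0.13 ± 0.15 without NAA and shifted by -2.67 ± 0.21 (adjusted p = 7.43e-09). Other lateral root genes were lower also without NAA, with LBD29 at -3.92, LBD16 at -1.77 and PUCHI at -3.67. LBD29 and LBD16 shifted upward, by 1.34 and 0.99 (adjusted p = 0.0403 and 0.0112), so their differences were smaller at 8 h than without NAA. Also without NAA, 5 of 10 auxin synthesis genes were higher, 6 of 20 cell cycle genes lower, and 3 of 15 iron uptake genes higher with 1 lower. In the auxin synthesis, cell cycle and iron uptake lists 0 members shifted.

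Aquaporins shifted the other way. Of the 14, 7 shifted upward and 0 downward, and 6 had been lower without NAA. PIP1;1 stood at -0.47 without NAA and TIP2;3 at -0.43, against 1.40 and 1.83 at 8 h. Both shifts passed (adjusted p = 8.73e-04 and 0.0117). SKOR stood at -0.23 and PP2-A1 at -0.58 without NAA, and both shifted upward, by 1.94 and 1.25. MYB36 was higher at both, by 0.95 without NAA and 2.64 at 8 h, with a shift of 1.69 (adjusted p = 0.0229). AT2G47560, a RING finger gene, AT5G43180, a putative membrane protein gene, AT3G25930, of the adenine nucleotide hydrolase fold, and BGLU46, a beta-glucosidase, were lower without NAA by -1.77, -1.34, -1.03 and -1.70 and stood at 0.21, 0.77, 0.87 and 0.37 at 8 h.

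**Figure D4:**
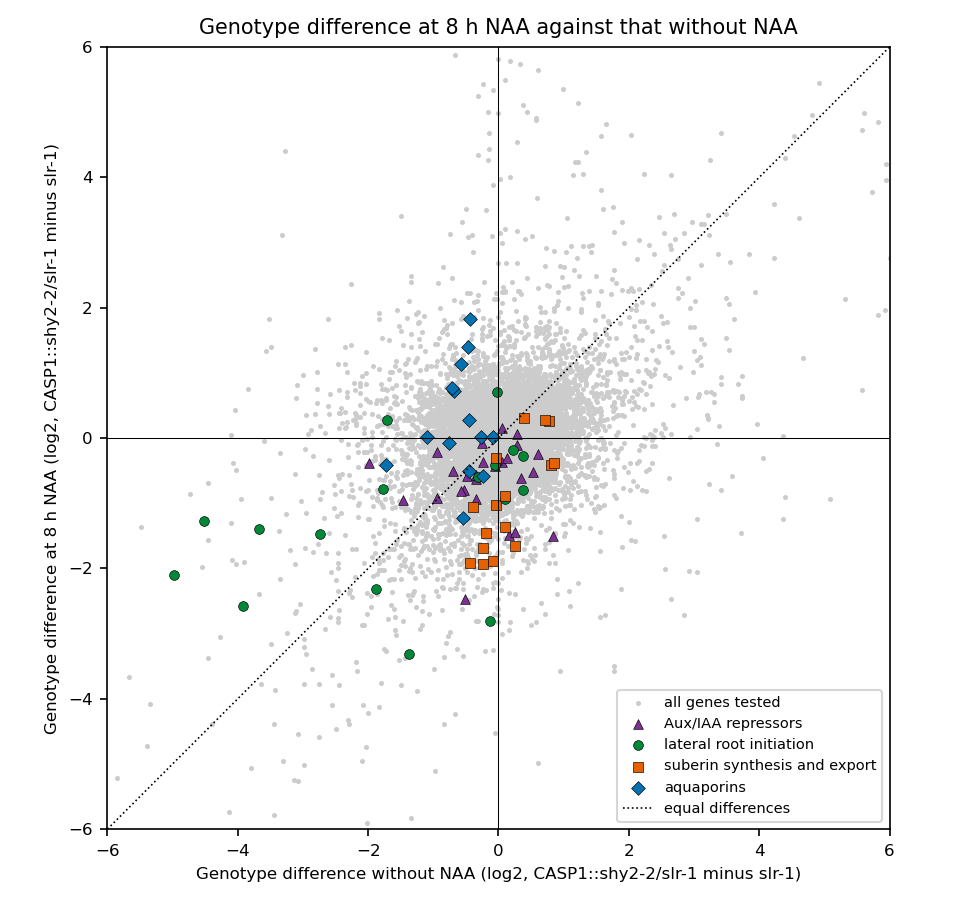
Genotype difference at 8 h NAA (vertical) against that without NAA (horizontal), both as log2 of CASP1::shy2-2/slr-1 minus slr-1, for all genes tested (grey) and 4 lists (coloured), with equal differences on the dotted line. The axes leave out 36 genes. Suberin genes lie below the dotted line and most near 0 on the horizontal axis, and PIP1;1 and TIP2;3 lie above it at 1.40 and 1.83.

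At 4 and 16 h of NAA, in libraries of their own, 3355 (16%) and 1814 genes (8.66%) differed between the genotypes. At 4 h 7.18% of genes were higher and 8.84% lower, and at 16 h 3.58% were higher and 5.08% lower. The 8 h calls were shared with 4 h for 706 higher and 914 lower genes, which are 51.3% and 54% of the 8 h lists and 46.9% and 49.4% of the 4 h lists. They were shared with 16 h for 322 higher and 577 lower genes (23.4% and 34.1% of the 8 h lists, 42.9% and 54.2% of the 16 h lists). Of the genes higher at 8 h, 1 was lower at 4 h and 6 were lower at 16 h, and of those lower at 8 h, 0 and 26 were higher. Within the libraries without the letter n the counts were 1824 at 4 h and 2652 at 16 h, and within those with it 3409 and 1298. IAA3 was lower by -0.83 ± 0.12 at 4 h, -1.49 ± 0.13 at 8 h and -1.85 ± 0.13 at 16 h. LBD18 was lower by -2.16, -2.80 and -2.80 at these times and FAR4 by -1.99, -1.68 and -2.07. CEL5 stood at -9.51, -5.83 and -1.80, and slr-1 itself held most CEL5 at 4 h. As a list, lateral root initiation had 13, 8 and 4 of 17 members lower at 4, 8 and 16 h, and suberin 12, 10 and 6 of 16 lower with 0, 0 and 7 higher.

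Few genes had a difference at 8 h that departed from the mean of those at 4 and 16 h. A steady change over the 3 times gives a value near 0 here, as for CEL5 at -0.17 ± 1.03. A small count therefore does not show that 8 h is like 4 or 16 h. The difference at 8 h minus the mean of those at 4 and 16 h passed for 11 genes (0.0525%), 4 upward (0.0191%) and 7 downward (0.0334%). MYB67, a MYB factor, stood at -0.79, -0.24 and -2.48 at 4, 8 and 16 h, a change of 1.40 ± 0.20 (adjusted p = 0.00382). AT3G43890, of the cysteine-rich C1 family, held 2.1, 2.95 and 1.45 CPM in CASP1::shy2-2/slr-1 at 8 h, against 0.253, 0.244 and 0.341 CPM in slr-1, and stood at 0.44, 2.95 and 1.75 over the 3 times. AT2G44230, a gene of unknown function, stood at -0.81, -1.44 and 0.64. The count of 11 genes was 50 with DESeq2 and between 1 (without CASP1::shy2-2/slr-1 replicate 1 at 8 h) and 33 (without slr-1 replicate 3 at 16 h) with 1 library left out.

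**Figure D5:**
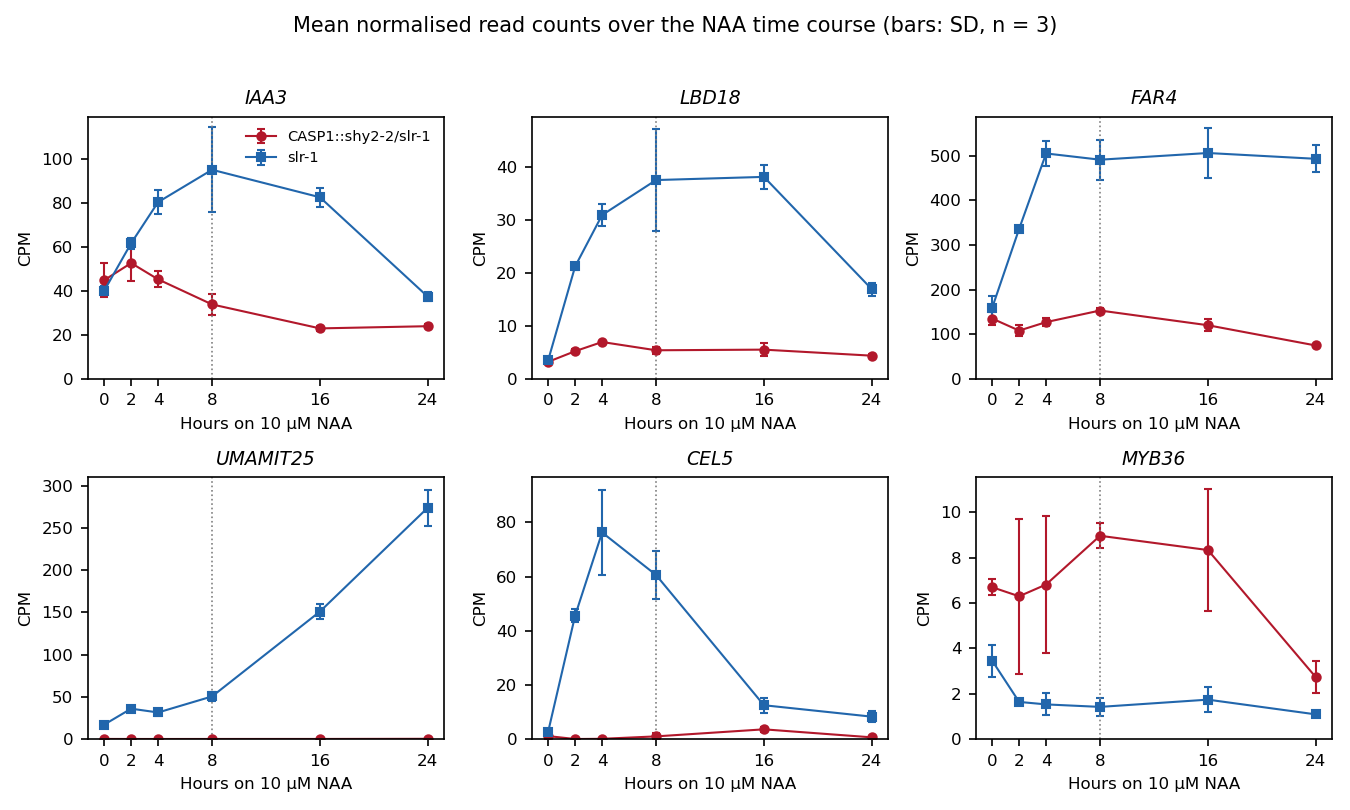
Mean CPM of 6 genes over 0, 2, 4, 8, 16 and 24 h on 10 µM NAA in CASP1::shy2-2/slr-1 (circles) and slr-1 (squares), with bars for the SD (n = 3 libraries). At 8 h, marked by a dotted line, IAA3 stands at 33.8 CPM in CASP1::shy2-2/slr-1, against 95 CPM in slr-1, and UMAMIT25 is near 0 in CASP1::shy2-2/slr-1 at every time.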

How the data were processed

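Per the labels, RNA was taken by Trizol from root sections and stranded mRNA libraries were sequenced as single reads. The deposited files hold the authors' read counts for each gene, made with cutadapt 1.3, STAR 2.4.0a and HTSeq 0.6.1 on TAIR10, per the submitters' processing notes. Whether counting used the strand is not given in the sources used here, so reads of overlapping and antisense genes cannot be told apart, and near-identical copies may share reads. The 5 summary categories (5.49 to 5.87% of reads at 8 h) were left out. Symbols came from a TAIR10.1 table holding 31912 of the 32678 genes, and no coordinates or sequences were used. Reads in genes numbered 28.1 to 49 M over the 36 libraries.

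Counts were tested with edgeR 4.0.16 under R 4.3.3 (TMM factors of 0.939 to 1.066, filterByExpr, robust quasi-likelihood F-test, 1 mean per group, all 36 libraries, 24 residual degrees of freedom), adjusted over the 20939 genes tested. The filter left out 11739 genes. The contrasts were the genotype difference at 8 h, untreated, at 4 h and at 16 h, that at 8 h minus that untreated, and that at 8 h minus the mean of 4 and 16 h. Comparisons at different times share no library, but the fit shares its estimate of spread. The pipeline was tested on simulated data. All comparisons, the 32 gene lists (441 loci, of which 16 symbols have another name or none in the table and were kept by locus) and their members were chosen with earlier results of these data known. Lists were described by counts and medians without a test. Named genes were the 3 targets, the 12 largest rises and falls that passed at 0.05 without overlap and averaged 1 or more in log2 CPM, the 5 smallest p in each direction, up to 4 called members by p per list and direction with whole small families, and the 5 smallest p in each direction of both contrasts between times. Further list members are given where a list is described.

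Replicate numbers were not taken as pairs at 8 h, since the deviations of same-numbered libraries correlated at 0.293, -0.425 and -0.197. At 16 h they correlated at 0.518, 0.227 and 0.656, but CASP1::shy2-2/slr-1 replicate 2 matched slr-1 replicate 1 best. Replicate 3 has the letter n in both genotypes at 16 h, so a pair and a shared letter cannot be told apart there. The replicate block left 1820 calls against 1814. It is 1 term over all 12 groups, so it cannot decide whether libraries are paired at 16 h. Alternatives were RLE size factors, total counts, DESeq2 1.42.0, a mean CPM of 5 or more in place of the filter, or none, only the groups compared, a replicate block, the code letter n as a term, each class of letter alone, stricter thresholds and each library left out.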

Additional observations from a re-analysis of the deposited data

Results flagged for a closer look

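The genes below are the targets and the 5 smallest p in each direction of the 8 h against untreated contrast. For 12 of them the genotype difference at 8 h differed from that without NAA, by an interaction term in the same edgeR fit. All but IAA3 and IAA14 passed by that choice. Other named genes passed this contrast as well, such as HIPP22 (-2.72 ± 0.43, adjusted p = 3.11e-04). IAA3 and IAA14 shifted by -1.65 and -1.69 on the log2 scale, LBD18 by -2.67 and FAR4 by -1.45. The kinase gene AT1G78530 shifted by -1.33 and ENODL16 by -1.94. These are downward shifts of the difference between the genotypes, not of the level in CASP1::shy2-2/slr-1 alone. IAA14 averaged 6.76 CPM untreated and 7.95 CPM at 8 h in CASP1::shy2-2/slr-1, against 5.69 and 21.5 CPM in slr-1. IAA3 averaged 44.8 and 33.8 CPM in CASP1::shy2-2/slr-1, against 40 and 95 CPM in slr-1. CKX5, a cytokinin oxidase, was higher by 2.36 without NAA and by 0.52 at 8 h, a shift of -1.84. Upward shifts were 1.98 for AT2G47560, 2.12 for AT5G43180, 1.89 for AT3G25930, 2.07 for BGLU46 and 0.93 for TET8, a tetraspanin. Of these upward genes, AT2G47560 and BGLU46 did not pass the test at 8 h (0.21 and 0.37) and were lower without NAA by -1.77 and -1.70.

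For 9 named genes the difference at 8 h departed from the mean of those at 4 and 16 h, by a contrast in the same fit. These 9 were chosen by their p in this contrast, so they passed by that choice. MYB67 departed by 1.40, BOR4, a boron exporter, by 1.18, AT2G32140 by 2.19 and AT3G43890 by 1.86. The acyltransferase gene AT1G78990 departed by -1.97, the F-box gene AT5G63520 by -0.52, AT2G44230 by -1.35, the carbohydrate-binding gene AT2G43670 by -0.79 and PLP8, a patatin-like protein gene, by -0.93. In MYB67, BOR4, AT2G32140, AT1G78990 and PLP8 the largest of the 3 single-time differences lay at 16 h, at -2.48, -1.58, -2.10, 4.38 and 1.72. The 8 h calls of AT2G32140 and PLP8 ended in 6 of 15 and 10 of 16 alternatives.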

How the results depend on the processing

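The count of 3069 genes at 8 h stayed within 1.5 times under RLE (3081), total counts (3036), DESeq2 (3556), no filter (2721), a minimum mean CPM of 5 (2389), the replicate block (3007), the letter n as a term (3174) and the libraries with n alone (3445). It moved to 1757 with only the groups compared, 1371 without lettered libraries, 1424 at an adjusted p under 0.01, 867 with a log2 difference of at least 1, and 1680 to 3318 with 1 library left out. The untreated count of 5223 became 2915, 2585 and 1096 with only the groups compared and the 2 thresholds, and 2537 to 5633 with 1 library left out. At 4 h, 3355 became 1824 without lettered libraries, 1475 and 911 at the thresholds, and 1668 to 3633. At 16 h, 1814 became 658 with only the groups compared, 963 and 662, and 1092 to 3274, the highest without slr-1 replicate 3. The 2433 genes of 8 h against untreated became 710, 847 and 1097 to 3243. The 11 genes of 8 h against 4 and 16 h became 17 with total counts, 50 with DESeq2, 1 with only the groups compared, 58 with the letter as a term, 87 with lettered libraries alone, 2 and 7 at the thresholds, and 1 to 33. List members called numbered 127 (38 higher, 89 lower), and 78 to 143 with 1 library left out (78 and 82 without CASP1::shy2-2/slr-1 replicates 1 and 2, 83 without slr-1 replicate 2). Of 129 named genes called at 8 h, 61 kept the call under every alternative but the thresholds. Signs turned for BOR4 (-0.10), XTH24 (0.05) and TIP1;1 (-0.07) without lettered libraries and for JAZ10 without CASP1::shy2-2/slr-1 replicate 1 (-0.01, in a range up to 2.11 with 1 library left out), and the causes were not tested. No untreated library has the letter n, so the 2 untreated comparisons could not be fitted within it. The replicate block moved no count past 1.5 times. In some fits within 1 class of letter a single library stands on 1 or both sides, where it is assumed to vary like the others. At 8 h the fit without lettered libraries sets CASP1::shy2-2/slr-1 replicate 3 alone against slr-1 replicates 1 and 2. That with lettered libraries alone sets CASP1::shy2-2/slr-1 replicates 1 and 2 against slr-1 replicate 3.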

Other observations

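GER2 and AT5G39120, 2 of the largest rises, lie in a run of germin-like genes, which encode secreted cupin proteins, and their neighbours were looked up after these values were seen. Of 12 protein-coding neighbours in gene order from AT5G39090 to AT5G39200, 9 were measured and 8 were higher in CASP1::shy2-2/slr-1 at 8 h. GLP6 (AT5G39100) held 2.33, 2.48 and 2.36 CPM in CASP1::shy2-2/slr-1, against 0 reads in all 3 slr-1 libraries, and was at least 89.7-fold higher against a floor of 3 reads over the group. AT5G39160 held 2.89, 3.42 and 2.14 CPM in CASP1::shy2-2/slr-1, against 0.168, 0.0886 and 0 CPM in slr-1. AT5G39130 held 3.01, 1.79 and 1.23 CPM in CASP1::shy2-2/slr-1, against 0.253, 0.199 and 0.248 CPM in slr-1. The flanking gene AT5G39090 held 9.39, 9.91 and 9.11 CPM in CASP1::shy2-2/slr-1 and 8.87, 8.24 and 7 CPM in slr-1, and did not pass (0.24 ± 0.10, adjusted p = 0.129). All 9 were also called higher without NAA, with AT5G39120 at 7.70 and GER2 at 4.53. Copies in this run are alike in sequence, so reads may be shared among them and the single values are uncertain.

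A second set of neighbours makes specialised metabolites. CYP705A1 and PEN1, the enzymes that make and cleave the triterpene arabidiol, are adjacent and were both higher. PEN1 held 57.1, 49.9 and 40.6 CPM in CASP1::shy2-2/slr-1, against 19.6, 21.5 and 18.3 CPM in slr-1 (1.31 ± 0.22, adjusted p = 1.70e-04). TPS13 and CYP71A20 are adjacent too, and held 18.2, 10.9 and 7.3 CPM and 36.6, 29 and 27.8 CPM in CASP1::shy2-2/slr-1, against 1.32, 1.86 and 1.49 CPM and 3.56, 5.09 and 2.94 CPM in slr-1. Next to them, TPS12 and CYP71A19 did not pass, with TPS12 at 16.2, 18 and 48.4 CPM in CASP1::shy2-2/slr-1 and 73.5, 68.3 and 27.9 CPM in slr-1. Of 54 WRKY factors measured, a family of defence regulators picked after seeing its values, 16 were higher (29.6%) and 6 lower (11.1%). Over all genes tested these shares were 6.58% and 8.08%. Without NAA 15 of the 54 were higher and 1 lower.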
